A study of Mus musculus with 12 samples.

Results

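The 6 Ribo-seq libraries of a mouse B cell lymphoma series, of 12 libraries in all, were divided here by their own Prps2 footprint level. Libraries with fewer than 50 CPM (counts scaled to the library total, per 1000000) on the Prps2 transcript ENSMUST00000026839 formed the low group, and the remaining ones formed the high group, 3 libraries each. This grouping exchanges 2 labels. The low group holds replicate 3 of the Eμ-Myc/+ label with replicates 1 and 3 of the Eμ-Myc/+ Prps2null label, and the high group holds replicates 1 and 2 of the former with replicate 2 of the latter. Values of single libraries are given below in these orders. Because the groups were chosen by Prps2 footprint level in the same libraries, each difference between them is a description without a test. Tests below use the labels as deposited.

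Ribo-seq sequences the short pieces of mRNA that a translating ribosome shields from nuclease, so a footprint count follows both how much of an mRNA a cell holds and how many ribosomes it carries. PRPS2 is a phosphoribosyl pyrophosphate synthetase. It makes PRPP, the activated sugar on which purine and pyrimidine nucleotides are built, and it is known as a target of Myc-driven translation in lymphoma. All lymphomas of the series carry the Eμ-Myc transgene, in which the immunoglobulin heavy chain enhancer drives Myc in B cells. The Prps2null lymphomas also lack functional Prps2.

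Each genotype had 3 labelled replicates, untreated, sequenced as RNA and as footprints. The labels give frozen lymphoma stocks injected into the tail vein of 8-week-old male C57BL/6 mice and B lymphocytes isolated from lymph nodes with a bead kit. Whether the 3 replicates of a genotype came from 1 lymphoma stock or from several is not given in the sources used here, so p-values may measure only the spread between grafts. In bulk samples, fewer cells of a type and less RNA per cell cannot be told apart.

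Prps2 footprints stood at 8.18, 5.11 and 9.65 CPM in the low libraries, from 22.8, 9.04 and 17.5 estimated counts. They stood at 162.5, 129.1 and 139.7 CPM in the high libraries. The highest low library and the lowest high library therefore lay at 9.65 and 129.1 CPM, far to either side of the threshold. The group means were 7.64 ± 2.32 and 143.8 ± 17.1 CPM (SD, n = 3). RNA-seq, which the rule did not use, followed the labels. Prps2 RNA was 60.3, 60.9 and 56.5 CPM in Eμ-Myc/+ lymphomas and 10.9, 8.53 and 9.09 CPM in Eμ-Myc/+ Prps2null lymphomas (log2 fold change -2.92, SE 0.21, adjusted p = 1.59e-07).

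**Figure D1:**
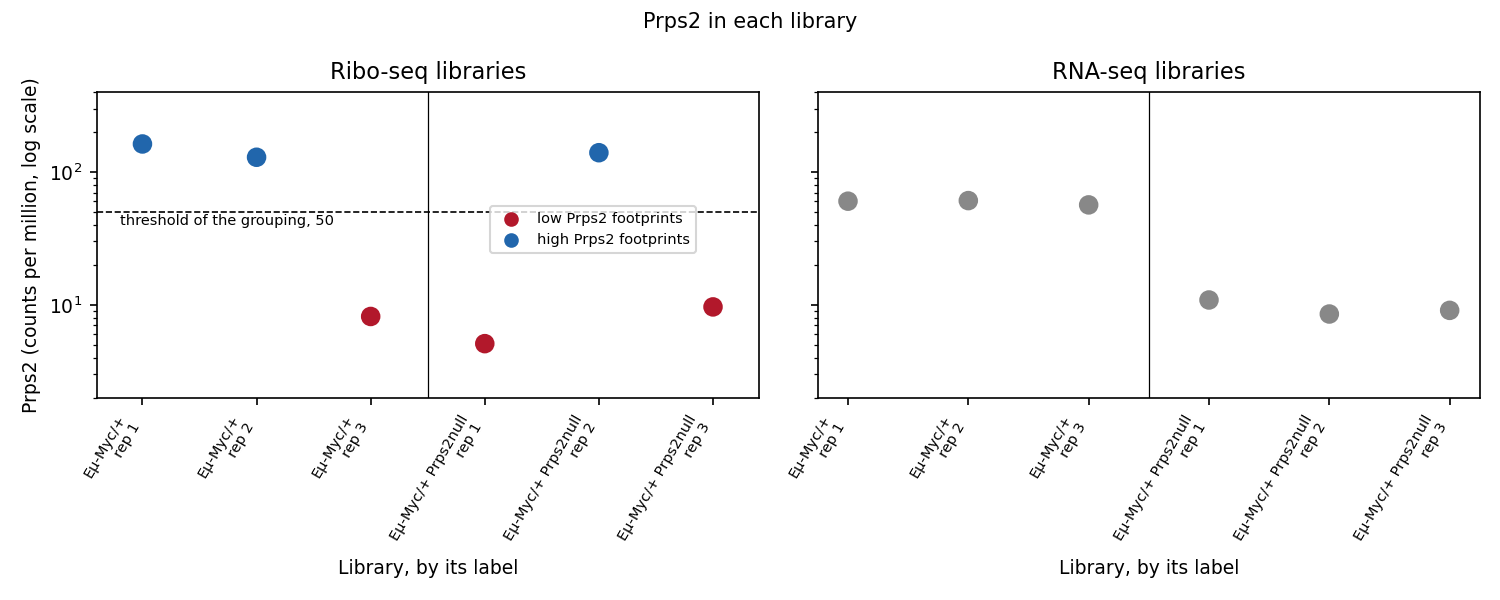
Prps2 in CPM (log axis) in each Ribo-seq library (left, coloured by the low and high groups, with the dashed threshold at 50 CPM) and each RNA-seq library (right), ordered by label. The footprint values of Eμ-Myc/+ replicate 3 (8.18) and of Prps2null replicate 2 (139.7) lie with the other label, and the RNA values do not.

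Sequencing depth moved with the grouping. The low libraries held 1770735 to 2793163 footprint counts and the high libraries 975201 to 1019881, so depth and Prps2 level cannot be told apart in this comparison. A transcript with 3 counts stands at 1.07 to 3.08 CPM, depending on the library. RNA-seq libraries held 4135908 to 6648829 counts.

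The 2 groups differed over a broad set of transcripts. Of 9031 transcripts that passed the filter on low counts, 690 were higher in the low group (7.64%) and 604 were lower (6.69%), counting those whose 3 low libraries lay all above or all below the 3 high ones with a log2 fold change of at least 1 in size. Without the limit on fold change, 2479 lay above (27.4%) and 2451 below (27.1%). The median log2 fold change over all transcripts tested was 0.02. After every library was thinned to 975023 counts, the numbers were 589 higher and 569 lower. In 32 of the 690 all high libraries were at 0, and in 4 of the 604 all low libraries were.

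Within each group the libraries were close to one another. The chi-square per degree of freedom between 2 libraries, which is near 1 where they differ by sampling alone, was 1.41 to 3.81 for pairs of the same group and 11.0 to 16.9 for pairs across the groups. Eμ-Myc/+ replicates 1 and 2 had the lowest value, at 1.41, so no 2 libraries held the same counts. Where libraries differ beyond sampling, this measure also grows with depth, which was greater in the low libraries. It therefore does not rank pairs by likeness alone. The common dispersion of the footprints, a squared coefficient of variation beyond counting error, was 0.0094 within the groups by Prps2 level and 0.0986 within the groups by label.

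RNA-seq gave a comparison that the grouping did not use. By the labels, 2163 of 14682 transcripts were higher in Eμ-Myc/+ Prps2null lymphomas (14.7%) and 2712 were lower (18.5%) at an adjusted p under 0.05. Scaling by library totals instead moved the split to 3885 higher and 1660 lower, with the median log2 fold change over all transcripts moving from 0.08 to 0.37. Without Eμ-Myc/+ replicate 1 the counts were 837 and 1887, and without Eμ-Myc/+ replicate 3 they were 1079 and 2164. Of the 690 transcripts with more footprints in the low group, 676 were tested in RNA-seq, 460 were higher in Prps2null RNA and 2 were lower, with a median RNA log2 fold change of 1.07. Those 2 were Plec, a cytoskeletal linker, and Rps6kb2, a kinase of ribosomal protein S6, both singled out after their values were seen. Of the 604 with fewer footprints, 599 were tested, 508 were lower in Prps2null RNA and 6 were higher, with a median of -1.59. Over all 8987 transcripts tested in both, 806 were higher and 2608 lower in RNA. The Pearson correlation of the 2 log2 fold changes across these transcripts was 0.79, where the libraries are separate but the lymphomas and the transcript models are shared.

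**Figure D2:**
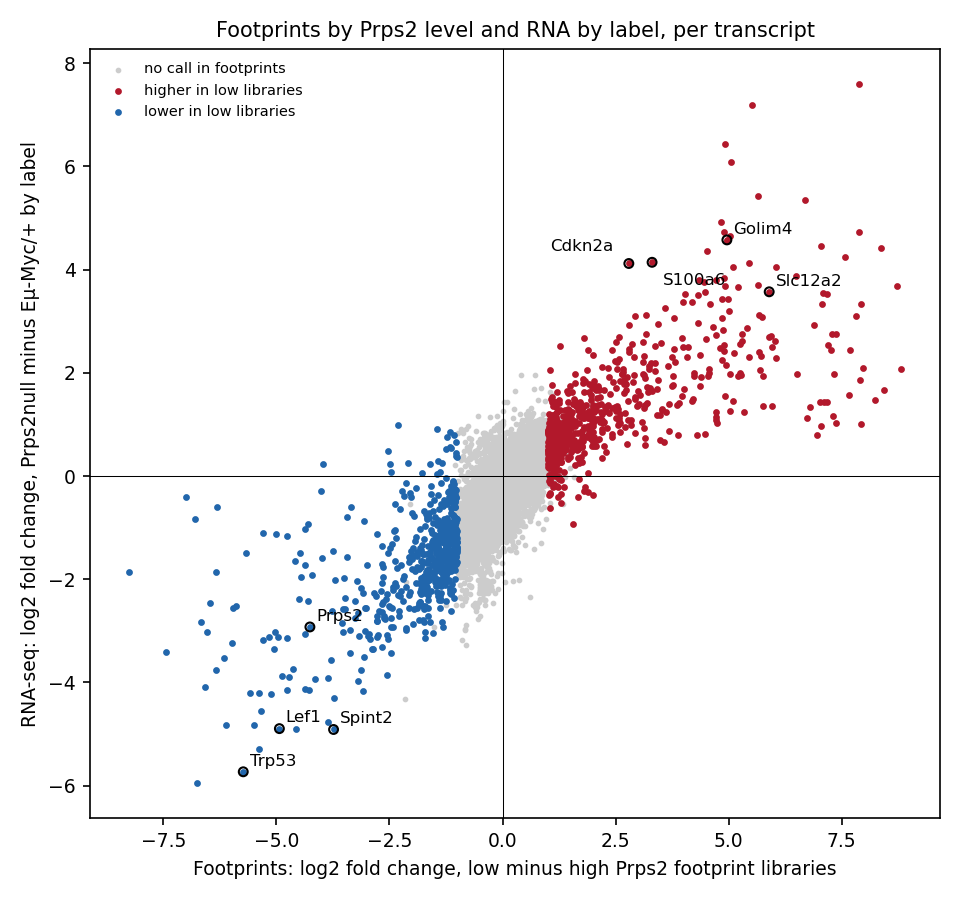
Each point is 1 of 8987 transcripts, with the footprint log2 fold change (low minus high Prps2 footprint libraries) on the x axis and the RNA-seq log2 fold change by label (Prps2null minus Eμ-Myc/+) on the y axis. Red and blue points are transcripts higher or lower in the low group, and circles mark 8 named genes; Trp53, at -5.73 on both axes, lies farthest down among them.

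Names were at hand for 2634 of 20561 transcripts, and they come from tables the study drew from the same samples, so they are unevenly spread. Among these tables is the study's set of genes with raised translation in Prps2null lymphomas, that is, with more footprints relative to RNA. A larger fall in RNA than in footprints among list members is therefore partly fixed by the naming. Of the 9031 transcripts tested 2494 were named, among them 190 of the 690 higher ones and 400 of the 604 lower ones. Counts by gene list below are therefore not independent evidence of a direction. They stand beside the shares over all 9031 transcripts, 7.64% higher and 6.69% lower with the fold limit and 27.4% above and 27.1% below without it. RNA-seq counts of the lists stand beside 8.97% higher and 29.0% lower over the 8987 transcripts tested in both. The lists hold named transcripts only, and a larger share of those was lower (400 of 2494). Shares over all transcripts are therefore not a like base for the lists.

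Among named transcripts with at least 10 CPM on average and no overlap, the lowest fold changes included those of Trp53, Aldh1b1, Prom1, Cacna1e, Bst1, Pllp, Cnksr3, Epha2, Fstl3 and Pak1. Trp53, the tumor suppressor p53, had 9.41, 8.73 and 16.7 CPM in the low libraries and 636, 566 and 543 CPM in the high libraries. No low library came near a high one, and the log2 fold change was -5.73. Trp53 RNA was 136.4, 121 and 114 CPM in Eμ-Myc/+ and 3.38, 3.03 and 2.07 CPM in Eμ-Myc/+ Prps2null lymphomas (log2 fold change -5.73, SE 0.26, adjusted p = 2.57e-09).

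Aldh1b1, a mitochondrial aldehyde dehydrogenase, stood at 2.30 ± 0.43 CPM in the low libraries and 164 ± 20.1 in the high ones (SD, n = 3). Prom1, which encodes the stem cell surface protein prominin, had 0.367, 0.994 and 1.28 CPM in the low libraries and 78.1, 66.5 and 89.4 in the high. Bst1, a cell surface glycoprotein of B cell precursors and bone marrow stroma, had 3.23 ± 2.58 and 111 ± 23.5 CPM. The low libraries of these genes were close to the counting floor. Fstl3, a secreted inhibitor of activins, kept 3 counts over the 3 low libraries against 115 in the high ones, a ratio of 81.1 in counts per library total with a 95% exact counting interval of 27.1 to 399. Pak1, a kinase of the cytoskeleton, kept 3 counts against 102, a ratio of 71.9 with an interval of 23.9 to 354. In RNA-seq these 10 genes were all lower in Prps2null lymphomas, with log2 fold changes from -1.86 for Epha2, adjusted p = 0.00736, to -5.73 for Trp53.

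The highest named fold changes included those of D3Ertd254e, Arsb, Myo18b, Dele1, Arhgef12, Mpp7, Rgl1, Slc12a2, Nek6, Daam1 and Cdk5rap2. Slc12a2, the sodium, potassium and chloride cotransporter NKCC1, had 167, 163 and 110 CPM in the low libraries and 1.20, 2.36 and 3.97 in the high. Cdk5rap2, a centrosome protein, had 94.7, 71.9 and 106 CPM against 2.18, 2.29 and 1.20. These 2 genes kept 7 and 5 counts in the high libraries, and the others of these 11 had fewer.

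Arsb, the lysosomal arylsulfatase B, had 152 counts in the low libraries and 0 in the high ones, which puts it at least 24.0-fold higher when 3 counts over the group are taken as the floor. D3Ertd254e was at least 28.2-fold higher on the same floor. Myo18b, an unconventional myosin, had 379 counts against 1, a ratio of 179 with a counting interval of 31.97 to 7096. Dele1, which relays mitochondrial stress to the integrated stress response, had 240 counts against 1, a ratio of 113 with an interval of 20.2 to 4501. These counting intervals are wide. The 1 count of Myo18b lay in Eμ-Myc/+ replicate 2 and that of Dele1 in Eμ-Myc/+ replicate 1. Without that library the remaining high libraries were at 0, which puts Myo18b at least 39.5-fold and Dele1 at least 25.0-fold higher on the same floor. In RNA-seq these 11 genes were all higher in Prps2null lymphomas, with log2 fold changes from 1.36 for Mpp7, adjusted p = 0.0013, to 3.57 for Slc12a2, adjusted p = 4.05e-07.

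**Figure D3:**
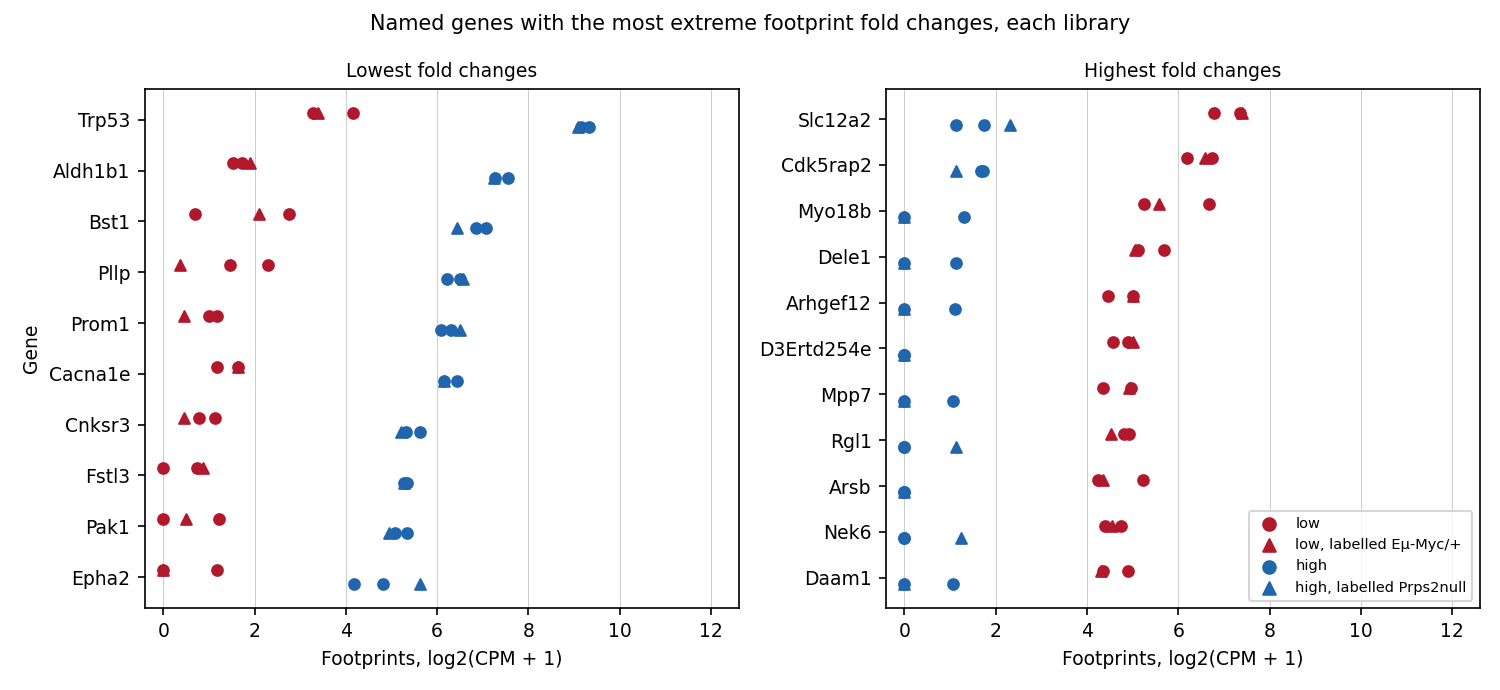
Footprints in log2(CPM + 1) of each of the 6 Ribo-seq libraries for the 10 genes with the lowest (left) and the 11 with the highest (right) fold changes that are named in the text; red marks low, blue high, and triangles mark the 2 libraries whose Prps2 level goes against the label. Genes were chosen for no overlap between the groups, so the separation, triangles included, follows from that choice; for Trp53 the triangles stand at 9.41 and 543 CPM.

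Among transcripts without a paired name, ENSMUST00000036877 and ENSMUST00000068755 had 31.3 to 41.8 and 28.2 to 38.5 CPM in the low libraries and 0 in all high ones. In the other direction, ENSMUST00000095266 had 0 in all low libraries and 15.0 to 31.2 CPM in the high, and ENSMUST00000208394 had 0 to 0.668 against 87.7 to 97.4 CPM.

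Nucleotide synthesis genes had fewer footprints in the low group. Of 38 listed genes 13 were named and tested, Prps2 among them. Of the other 12, 11 lay below in all low libraries, beside 27.1% of all transcripts, and 0 lay above. With the fold limit 2 were lower, Umps and Ctps2, beside 6.69% of all transcripts and 400 of the 2494 named ones. Umps, which makes UMP at the end of pyrimidine synthesis, had 207, 188 and 232 CPM against 492, 602 and 518, a log2 fold change of -1.40. Ctps2, a CTP synthase, had 54.0 ± 7.15 against 114 ± 8.66 CPM (SD, n = 3), a log2 fold change of -1.11. The median of the 12 was -0.48, against 0.02 over all transcripts. Impdh2, the main IMP dehydrogenase of proliferating cells, differed by -0.28 and Nme2, a nucleoside diphosphate kinase, by -0.26. Dut, which removes dUTP, overlapped between the groups. In RNA-seq all 12 were lower in Prps2null lymphomas. Prps2 included, all 13 were, and 11 with library totals.

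The p53 list spread in both directions. Of 28 genes 7 were named and tested, of which Cdkn2a was higher and Trp53, Bbc3 and Trp53inp1 were lower. The shares over all transcripts were 7.64% higher and 6.69% lower. Cdkn2a encodes ARF, which restrains MDM2, and the kinase inhibitor p16. It had 196, 228 and 210 CPM in the low libraries and 19.8, 33.0 and 35.9 in the high, a log2 fold change of 2.79. Its RNA was 59.96, 81.5 and 79.9 CPM in Eμ-Myc/+ Prps2null against 4.70, 2.41 and 3.53 CPM in Eμ-Myc/+ lymphomas (log2 fold change 4.12, SE 0.27, adjusted p = 4.48e-08).

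Bbc3, which encodes the p53 target and death inducer PUMA, had 9.41, 6.28 and 4.67 CPM against 32.4, 50.6 and 43.2, a log2 fold change of -2.63. Trp53inp1, another p53 target, differed by -1.60. Pmaip1 (NOXA, -0.81) and Ccng1 (cyclin G1, -0.67) lay below in all low libraries within the fold limit, and the death effector Bax overlapped, with 90.3 ± 5.54 against 94.2 ± 11.6 CPM. RNA-seq had 1 of the 7 higher and 6 lower in Prps2null lymphomas (5 lower with library totals), the higher one being Cdkn2a.

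MHC class II genes, through which B cells present antigen to T cells, were lower together. Of 10 listed genes 8 were named and tested, all 8 lay below in every low library, and 7 passed the fold limit. Over all transcripts 27.1% lay below, and 6.69% were lower past the limit. The list's median log2 fold change was -1.36. H2-Eb1, a class II beta chain, had 190, 218 and 191 CPM in the low libraries and 649, 685 and 582 in the high, a log2 fold change of -1.72. H2-Aa, the alpha chain of the other class II molecule, differed by -1.54. Ciita, the transactivator that switches class II genes on, had 62.4, 62.0 and 60.7 CPM against 142, 154 and 125, a log2 fold change of -1.23. Cd74, the invariant chain, differed by -1.33. H2-DMa, part of the peptide exchange factor, was the one within the fold limit, at -0.85. All 8 were lower in Prps2null RNA, also with library totals.

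The labelled cell type was checked against B lineage markers, of which 9 of 24 were named. Cd79a, the signalling chain of the B cell receptor, was present in every library, at 439 CPM on average in the low and 691 in the high group. Bank1, Ms4a1 and Cd52 were higher in the low group, beside 7.64% higher and 6.69% lower over all transcripts. Ms4a1, which encodes CD20, had 207, 227 and 221 CPM against 38.3, 23.2 and 22.0, a log2 fold change of 2.93. Bank1, a B cell scaffold protein, had 265, 293 and 244 CPM against 34.6, 24.0 and 13.7, a log2 fold change of 3.44. Cd52, a lymphocyte surface peptide, differed by 1.76.

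Irf4, a transcription factor of activated B cells, had 113, 84.6 and 138 CPM against 291, 307 and 241, a log2 fold change of -1.36. Ccr7, the lymph node homing receptor, differed by -1.17. RNA-seq had 3 of the 9 higher and 6 lower in Prps2null lymphomas. Ms4a1 RNA differed by 3.09 (SE 0.26, adjusted p = 5.15e-07) and Cd52 RNA by 1.30 (SE 0.40, adjusted p = 0.0219, over 0.05 in 4 of 12 alternatives).

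Early B lineage genes were named in 7 of 18 cases, 6 of them tested in footprints, of which 3 were lower and 0 higher. Over all transcripts 6.69% were lower and 7.64% higher. Lef1, a Wnt pathway transcription factor of B cell precursors, had 3.20, 4.95 and 5.00 CPM against 118, 131 and 135.7, a log2 fold change of -4.93. Rag1, the recombinase of antigen receptor genes, had 19.3, 10.1 and 9.35 CPM against 209, 167 and 94.6, a log2 fold change of -3.55. Sox4, a factor needed for early B cells, had 26.2, 12.1 and 56.5 CPM against 111, 139 and 123; its log2 fold change of -2.03 became -2.66 without Eμ-Myc/+ Prps2null replicate 3. Cd93 and Spn differed by 0.02 and -0.54. Enpep, a precursor B cell aminopeptidase, was not tested in footprints, with 37.7 CPM in Eμ-Myc/+ Prps2null replicate 3 and at most 3.27 in the other libraries. In RNA-seq 5 of the 7 were lower in Prps2null lymphomas (4 with library totals) and 1 was higher, Enpep. Its RNA differed by 1.38 (SE 0.51, adjusted p = 0.0486, under 0.05 in 5 of 12 alternatives). Of plasma cell genes, both that were named were lower. Mzb1, a chaperone for immunoglobulin, had 108 ± 14.5 against 341 ± 5.63 CPM (SD, n = 3), and Derl3, of the endoplasmic reticulum, had 10.8 ± 0.642 against 70.4 ± 4.40.

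Markers of other cells in the lymph node were few. Summed over the 7 named myeloid genes, footprints ranged from 144 to 293 CPM in the low and from 95.2 to 253 CPM in the high libraries. Lyz2, C1qb, C1qc, Csf1r, Mrc1 and Cd68 overlapped between the groups, and Itgad, an integrin of macrophages, was lower, with 4.26 ± 3.37 against 14.8 ± 0.988 CPM (log2 fold change -1.89, and -2.53 without Eμ-Myc/+ Prps2null replicate 3). Summed over the 11 named stromal genes, footprints ranged from 92.2 to 211 CPM and from 90.3 to 708 CPM. Eμ-Myc/+ Prps2null replicate 2 held the top of that range. Its Col3a1, a fibrillar collagen chain, stood at 233 CPM against 17.2 to 109 in the other libraries, and its Col1a1 at 208 against 12.7 to 77.1. The 5 stromal genes tested in footprints all overlapped between the groups. In RNA-seq 3 of the 11 were lower in Prps2null lymphomas and 0 higher, also with library totals: Col3a1 (log2 fold change -4.31, SE 0.34, adjusted p = 3.54e-07), Col1a2 (-2.93, SE 0.44, adjusted p = 0.000125) and Col1a1 (-1.75, SE 0.34, adjusted p = 0.0013). The summed stromal RNA was 51.6 to 85.4 CPM in Prps2null and 79.1 to 153 CPM in Eμ-Myc/+ lymphomas. Of T and NK cell genes, Lck stood at 25.6 ± 2.33 against 43.02 ± 6.32 CPM and Tcf7 was not tested. No erythroid gene was named. The part of other cells in the differences above was not tested.

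Most ribosomal protein transcripts had fewer footprints in the low group, by a small margin. Of 48 transcripts of the large subunit 46 lay below in all low libraries and 0 above, with a median log2 fold change of -0.49. Over all transcripts 27.1% lay below and 27.4% above. Of 32 transcripts of the small subunit 28 lay below and 0 above, with a median of -0.42. Only Rpl22l1, a paralog of Rpl22, passed the fold limit, with 61.8, 81.0 and 40.2 CPM against 141, 157 and 147 (log2 fold change -1.32). Rpl24 (-0.89), Rpl35a (-0.82), Rps23 (-0.81) and Rpsa (-0.81) came next among the lowest of each list. Rpl34, Rpl30, Rps3a1, Rps15a, Rps19 and Rps27 overlapped between the groups.

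Summed over the large subunit, footprints took 14958 to 18800 CPM in the low and 22027 to 23856 CPM in the high libraries. RNA differed more in these genes, a pattern that the source of the names favours. All 48 and all 32 were lower in Prps2null RNA under every scaling tried, with median log2 fold changes of -2.19 and -2.12. Pseudogene copies may share some of these reads. For Rpsa, the footprint log2 fold change of -0.81 stood beside an RNA value of -2.36 (SE 0.31, adjusted p = 4.67e-05). The difference between the 2 was not tested.

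Initiation and elongation factors lay on both sides of 0. Of 27 tested, 5 lay above and 11 below in all low libraries, beside 27.4% and 27.1% of all transcripts. Eif4a2, an RNA helicase of the cap-binding complex, alone passed the fold limit, beside 6.69% lower over all transcripts. Eif4a2 had 75.8, 75.4 and 60.2 CPM against 424, 395 and 276, a log2 fold change of -2.41. Eif2a, an alternative initiation factor, lay above, with 397, 405 and 301 CPM against 189, 222 and 184, a log2 fold change of 0.85. In RNA-seq 27 of 28 were lower in Prps2null lymphomas, and 20 with library totals. Eif2a RNA was among them (log2 fold change -0.64, SE 0.19, adjusted p = 0.0159, over 0.05 in 3 of 12 alternatives), so its RNA and footprint fold changes had opposite signs.

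Mitochondrial genes were grouped in 2 lists. Of 53 transcripts of the respiratory chain and ATP synthase 36 lay below and 0 above, with a median of -0.38, beside 27.1% below and 27.4% above over all transcripts. Atp5j, a coupling subunit of ATP synthase, had 123, 158 and 137 CPM against 309, 301 and 283 (log2 fold change -1.14), and Sdha, the flavoprotein of succinate dehydrogenase, had 268, 234 and 310 against 599, 536 and 584 (-1.12). With Cox7c they were the 3 past the fold limit, beside 6.69% of all transcripts. Of 32 mitochondrial ribosomal proteins 12 lay below and 4 above, and Mrpl36, Mrpl40 and Mrpl32 passed the limit, at -1.39, -1.25 and -1.07. Proteasome transcripts, 18 in all, held 0 past the limit, with 9 below and 2 above. In RNA-seq the numbers lower in Prps2null lymphomas were 47 of 53, 25 of 32 and 15 of 18, and 34, 16 and 7 with library totals.

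Replication-dependent histone transcripts, 49 in all, lay below in every low library, with log2 fold changes from -0.82 to -0.41 and a median of -0.64. Over all transcripts 27.1% lay below. Many of these genes are near-identical copies that share reads, so their counts are uncertain and the 49 are far fewer than 49 separate measurements. Hist1h1c, a linker histone, had 423, 528 and 609 CPM against 651, 701 and 672. All 49 were lower in Prps2null RNA, and 43 with library totals.

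**Figure D4:**
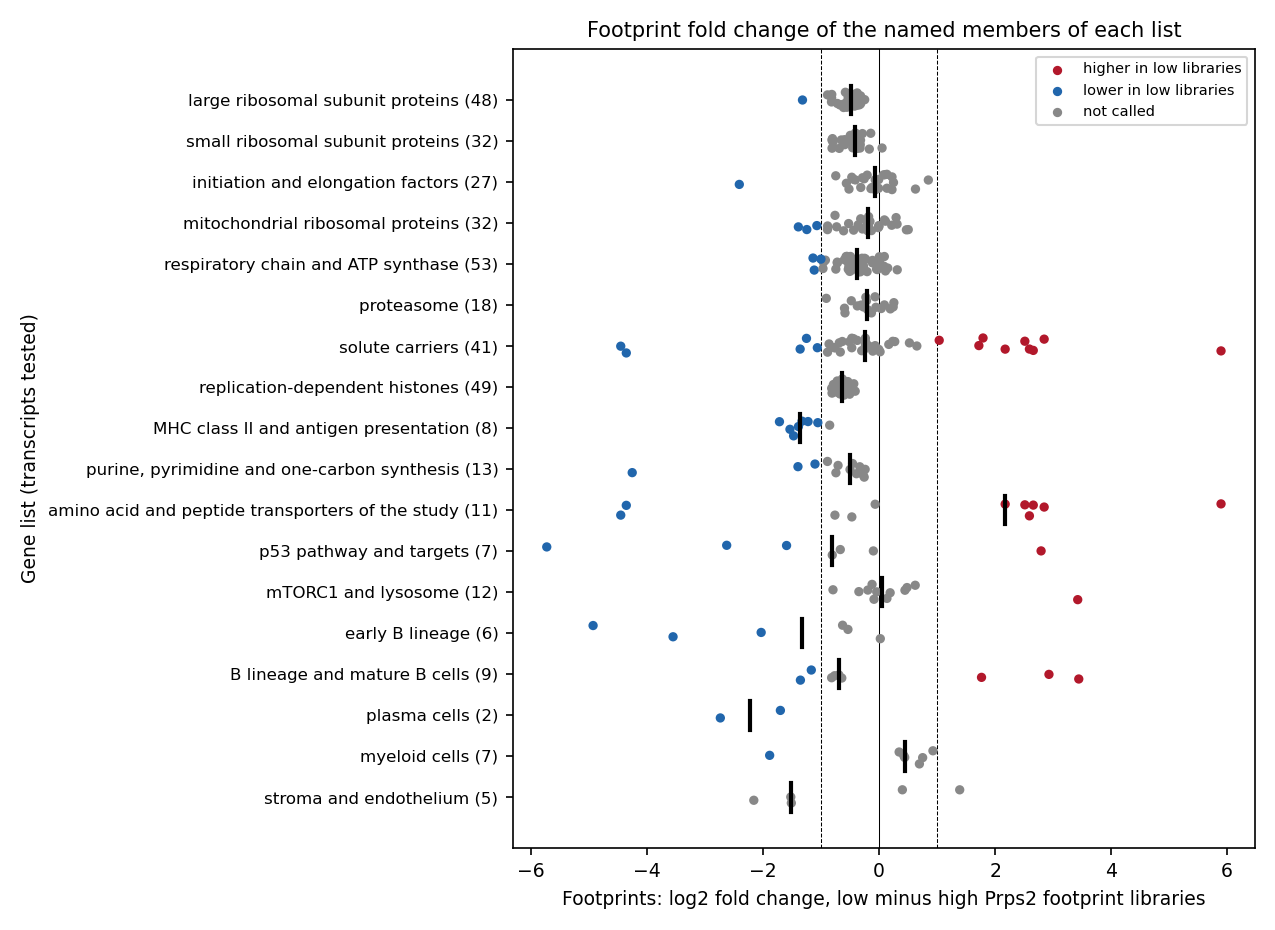
Footprint log2 fold change (low minus high Prps2 footprint libraries) of each named member of 18 gene lists, with the number tested in brackets; red and blue points passed the limit of no overlap and a log2 fold change of at least 1 in size, black bars are medians and dashed lines the fold limit. Ribosomal protein, histone and MHC class II genes lie together at or below 0 apart from Rps27 at 0.05, and solute carriers spread from -4.46 to 5.90.

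Solute carriers, which move small molecules across membranes, lay in both directions. Of 41 tested 9 were higher and 5 lower, beside 7.64% and 6.69% of all transcripts, with a median of -0.24. The study drew its amino acid and oligopeptide transport pathway, which includes Slc15a3, from genes higher in both assays on these samples. A list of 16 transporters, mostly of amino acids and peptides but also of ions, was made here with those results known. Of these 11 were named and tested, of which 6 were higher and 2 lower. The 6 and the 2 are part of the 9 and the 5 above. Those counts therefore include genes picked on the same samples and do not describe solute carriers as a family. Slc15a3, a lysosomal histidine and peptide transporter, had 39.6, 40.3 and 39.8 CPM against 7.28, 1.35 and 8.63, a log2 fold change of 2.85. The low libraries were nearly equal. Its RNA differed by 1.08 (SE 0.41, adjusted p = 0.054, under 0.05 in 5 of 11 alternatives), and the RNA libraries of the 2 labels overlapped after scaling. Slc7a7, of cationic amino acid export, had 21.8, 23.8 and 23.7 CPM against 3.63, 4.79 and 2.30, a log2 fold change of 2.59. Its RNA differed by 1.20 (SE 0.47, adjusted p = 0.0574, under 0.05 in 6 of 11 alternatives). Slc1a4, a neutral amino acid transporter, had 59.5, 63.2 and 67.9 CPM against 7.79, 25.6 and 7.34, and its log2 fold change of 2.17 was 3.02 without Eμ-Myc/+ replicate 2.

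Slc8a1, a sodium and calcium exchanger, had 23.01, 27.1 and 22.7 CPM against 2.81, 1.30 and 7.27, with a log2 fold change of 2.66 that was 3.52 without Eμ-Myc/+ Prps2null replicate 2. Slc36a1, a lysosomal amino acid transporter, had 7.94, 8.17 and 9.07 CPM against 1.01, 1.23 and 2.502, from 4 counts in the high group. For Slc12a2, described above, the log2 fold change was 5.90, and 6.52 without Eμ-Myc/+ Prps2null replicate 2. In RNA-seq 4 of the 11 were higher and 3 lower in Prps2null lymphomas (6 higher and 3 lower with library totals).

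Slc6a9, the glycine transporter GLYT1, went the other way, with 2.17, 3.43 and 1.38 CPM against 46.6, 50.4 and 48.2, a log2 fold change of -4.46. Slc43a1, a transporter of large neutral amino acids, had 0.938, 0 and 4.66 CPM against 44.1, 27.5 and 36.5. Its log2 fold change of -4.36 was -5.67 without Eμ-Myc/+ Prps2null replicate 3. Slc25a1, the mitochondrial citrate carrier, differed by -1.36. Slc35g1 and Slc25a53 were the others below, and Slc35d1, Slc35f2 and Slc16a6 the others above, at 1.79, 1.72 and 1.04.

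The mTORC1 and lysosome list had 12 of 27 genes named and tested, of which 1 was higher and 0 lower past the fold limit. Over all transcripts these shares were 7.64% and 6.69%. Deptor, an mTOR inhibitor, was the 1 past the fold limit, with 16.6, 13.8 and 15.9 CPM against 0, 3.38 and 1.43; its log2 fold change of 3.42 was 4.71 without Eμ-Myc/+ replicate 2. Lamp2, a lysosomal membrane protein, had 98.4, 94.7 and 118 CPM against 56.0, 62.5 and 78.1 (0.62), and Lamp1 lay above too (0.48). Lamp2 RNA differed by -0.26 (SE 0.41, adjusted p = 0.643). Lamp1 RNA had the opposite sign to its footprints, at -0.67 (SE 0.23, adjusted p = 0.0384, under 0.05 in 6 of 12 alternatives). Ulk1, the kinase that starts autophagy, lay below at -0.80, and its RNA differed by -1.05 (SE 0.23, adjusted p = 0.00262). Mtor overlapped, with 215, 237 and 444 CPM against 236, 240 and 288, where Eμ-Myc/+ Prps2null replicate 3 alone stood high. In RNA-seq 7 of the 12 were lower in Prps2null lymphomas (5 with library totals) and 1 was higher, Deptor.

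Among the remaining genes listed for this report were Golim4, Foxf2, S100a6 and Spint2, which the study's text does not discuss. Golim4, a Golgi membrane protein, had 55.6, 47.7 and 63.5 CPM in the low libraries and 0, 2.71 and 2.05 in the high. Its log2 fold change of 4.96 ran from 4.37 without Eμ-Myc/+ replicate 1 to 5.65 without Eμ-Myc/+ replicate 2. Foxf2, a forkhead transcription factor, had 90.6, 78.5 and 92.6 CPM against 1.03, 2.60 and 4.46 (4.96). S100a6, a calcium-binding protein, had 121, 155 and 70.1 CPM against 6.85, 16.1 and 11.2 (3.31). Spint2, an inhibitor of serine proteases, had 11.6, 17.4 and 19.7 CPM against 187, 217 and 209 (-3.74). The same genes differed in RNA-seq in these directions, from -4.91 for Spint2 (adjusted p = 8.04e-09) to 4.58 for Golim4 (adjusted p = 8.04e-09).

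By the deposited labels the footprints gave another picture. The edgeR quasi-likelihood test called 0 of 9031 transcripts at an adjusted p under 0.05, with 47 at an unadjusted p under 0.05, and DESeq2 called 0 and 35. Trp53 had a log2 fold change of -1.13 by label and -5.73 by Prps2 level, MHC class II genes a median of -0.53 and -1.36, and Cdkn2a 0.92 and 2.79. Over the 690 transcripts higher in the low group the median log2 fold change by label was 0.49, and over the 604 lower ones it was -0.51. Over all transcripts the Pearson correlation with the RNA-seq log2 fold change was 0.60 by label.

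The 2 libraries that go against their labels were set beside the other 4, with which they share no library. Of 9048 transcripts, the 4 libraries alone gave 776 higher (8.58%) and 663 lower (7.33%) at low Prps2 footprints. A value in the other 2 was taken only where a transcript passed the low-count filter over all 6 libraries, which left out 30. The 2 libraries therefore bore on which transcripts were counted. Of 759 higher ones with a value in the other 2, Prps2 left out, 725 were also higher in the library labelled Eμ-Myc/+ replicate 3 than in that labelled Eμ-Myc/+ Prps2null replicate 2, with a median log2 difference of 1.53. Of 649 lower ones 640 were lower, with a median of -1.40. The medians in the 4 libraries were 1.73 and -1.43, and the median over all transcripts in the 2 was 0.01. Trp53 footprints were 9.41 and 543 CPM in these 2 libraries, MHC class II H2-Eb1 190 and 582, and Cdkn2a 196 and 35.9.

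Each Ribo-seq library was last set beside each RNA-seq library, by the correlation across 8987 transcripts of deviations from the mean of their assay. The low libraries, Eμ-Myc/+ replicate 3 included, correlated at 0.45 to 0.76 with the 3 Prps2null RNA libraries and at -0.72 to -0.65 with the 3 Eμ-Myc/+ RNA libraries. The high libraries, Eμ-Myc/+ Prps2null replicate 2 included, correlated at 0.57 to 0.68 with Eμ-Myc/+ RNA and at -0.69 to -0.46 with Prps2null RNA. Eμ-Myc/+ replicate 3 footprints were most like Eμ-Myc/+ Prps2null replicate 2 RNA (0.76), and Eμ-Myc/+ Prps2null replicate 2 footprints were most like Eμ-Myc/+ replicate 3 RNA (0.67). Best matches at another replicate number were not particular to these 2. Eμ-Myc/+ Prps2null replicate 1 footprints were most like replicate 3 RNA of their label (0.75), and replicate 3 footprints most like replicate 2 RNA (0.66). Eμ-Myc/+ replicates 1 and 2 were most like their own number (0.66 and 0.68). The transcripts are not independent, and libraries of an assay share its mean.

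**Figure D5:**
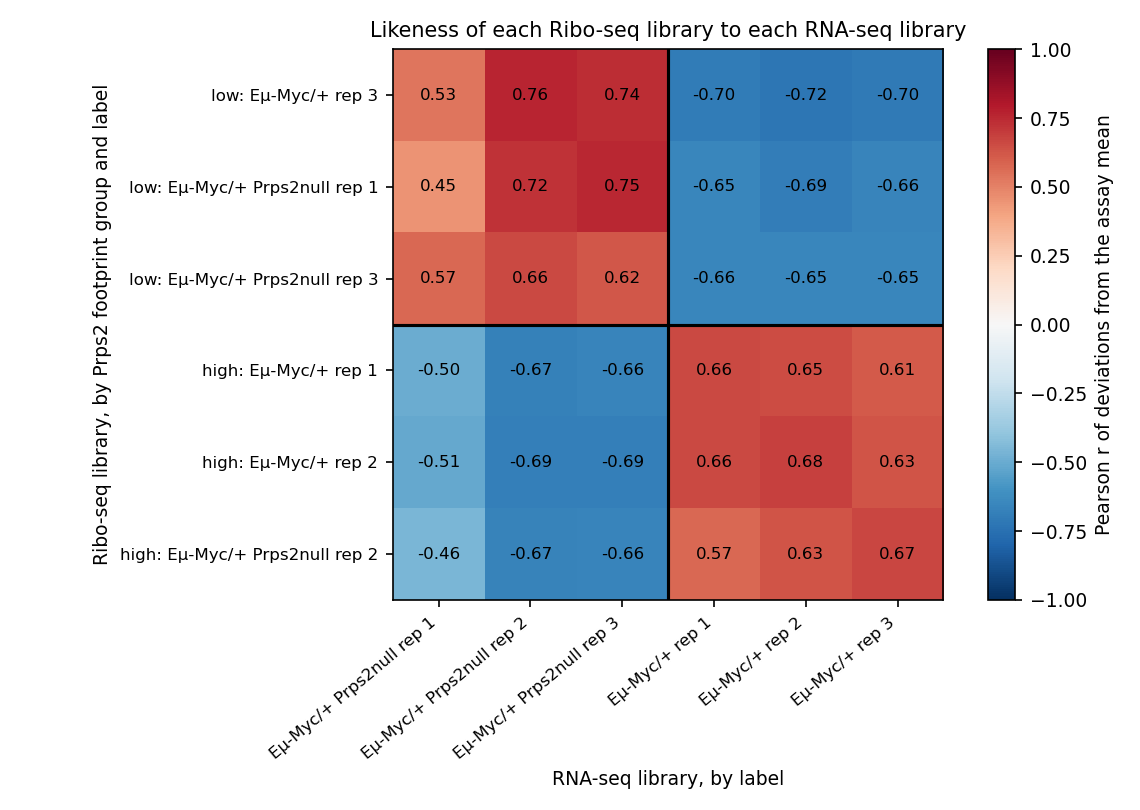
Pearson correlation, across 8987 transcripts, of the deviation from the assay mean between each Ribo-seq library (rows, low group above the line) and each RNA-seq library (columns, Prps2null left of the line). Positive values fill the block of low footprints with Prps2null RNA and the block of high footprints with Eμ-Myc/+ RNA, with no exception among the 36 pairs.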

How the data were processed

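B lymphoma cells were profiled by RNA-seq and Ribo-seq in 12 libraries. Per the study's methods and the submitters' processing notes, Ribo-seq reads were trimmed (cutadapt 2.3), collapsed by molecular identifier and cleared of rRNA and tRNA. Reads of both assays were aligned with Bowtie2 2.3.5 to 1 transcript per gene (mm10). The RNA-seq values deposited are raw counts. The Ribo-seq values deposited are estimated counts, corrected by the authors for stalling, of which 54.3% were not whole; they were rounded here.

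Libraries were grouped by Prps2 footprint CPM and, for tests, by label. Fold changes and adjusted p-values came from the edgeR 4.0.16 quasi-likelihood fit (R 4.3.3), with median-of-ratios scaling, filterByExpr and Benjamini-Hochberg adjustment, checked on simulated counts. DESeq2 1.42.0 was an alternative. The members, gene lists and named genes were chosen with earlier results of these data known. Named were a list of 20 genes, some discussed in the study and others, such as Golim4 and Trp53, chosen with earlier results known. Added to these were the 12 highest and 12 lowest footprint fold changes among named transcripts with at least 10 CPM and no overlap. So were the 3 highest and 3 lowest of each list and up to 2 unnamed transcripts per direction. Intervals and floors cover counting error only. Gene positions and sequences were not used here. Of the genes this rule gave, 3 are not reported here.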

Additional observations from a re-analysis of the deposited data

How the results depend on the processing

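Against 690 higher and 604 lower transcripts (1294 in all) in footprints of the low group, removing the filter on low counts gave 1357 higher (2138 in all), requiring 10 counts in every library gave 252 and 398 (650 in all, from 7749 transcripts tested), and a fold limit of 0.5 gave 1619 and 1623 (3242 in all). Leaving out each library gave 1229 to 1648 in all, 613 to 964 higher and 599 to 684 lower. TMM, library totals, DESeq2, thinning and leaving out the 2 libraries that go against their labels stayed within 1.5 times. For RNA-seq, library totals gave 3885 higher and 1660 lower, and leaving out each library gave 2724 to 5345 in all, 837 to 2363 higher and 1887 to 3121 lower; the lowest count came without Eμ-Myc/+ replicate 1, and 3243 in all (1079 higher) were called without Eμ-Myc/+ replicate 3. Footprints by label gave 0 calls under each setting run. Fold changes of 130 named transcripts kept their sign wherever they were called; 62 of 1641 alternative values moved by more than the spread between libraries. The number of footprint libraries most like the RNA library of their own label and number was 2 of 6, and 1 both at 50 counts and with deviations from group means; the cause was not tested.

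Same-numbered libraries are different lymphomas. Their deviations from the label means correlated at -0.17, -0.03 and -0.0035 in RNA-seq and at -0.62, 0.75 and 0.71 in Ribo-seq. Each Ribo-seq label holds both low and high libraries, so deviations from its mean also carry the difference between those groups. The Ribo-seq values therefore cannot show whether libraries are alike by replicate number. The numbers were not taken as pairs. With the replicate number as a block, RNA-seq gave 1633 higher and 2359 lower (3992 in all) and footprints by label 0. Depth limits footprints at 0 to about 1 to 3 CPM.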

Other observations

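When deviations were taken from the mean of each group of 3 (RNA-seq by label, Ribo-seq by Prps2 footprint level), the likeness of single libraries was weak. Footprints of Eμ-Myc/+ replicate 1 were most like RNA of Eμ-Myc/+ replicate 1 (r = 0.14), and footprints labelled Eμ-Myc/+ Prps2null replicate 2 were most like RNA labelled Eμ-Myc/+ replicate 3 (r = 0.22). Footprints of Eμ-Myc/+ Prps2null replicate 1 were most like RNA of Eμ-Myc/+ Prps2null replicate 3, and footprints of replicate 3 most like RNA of replicate 1 (r = 0.28 for both). With at least 50 counts on average in each assay, a combination chosen after seeing the data, these values were 0.17, 0.29, 0.33 and 0.26 over 6097 transcripts. Footprints of Eμ-Myc/+ replicate 2 were most like RNA of Eμ-Myc/+ replicate 1 (r = 0.06) and, at 50 counts, like RNA of their own number (0.12). Footprints labelled Eμ-Myc/+ replicate 3 were most like RNA labelled Eμ-Myc/+ Prps2null replicate 2, at 0.08 and 0.03. With 3 libraries per group, deviations from a group mean are tied to one another, and no test was made.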
